A study of Mus musculus with 12 samples.

Results

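The 8 genes described here are regulators of apoptosis and cell death, namely *Apaf1*, *Casp9*, *Bax*, *Bak1*, *Bcl2*, *Bcl2l1*, *Aifm1* and *Parp1*. They were taken by gene symbol, whatever their values, from a table of 56748 entries of scaled counts and from a table of 55372 entries of TPM, the length-corrected share of a transcript in its library, and each symbol occurs once in both. The question put to them was whether a death signal is present at 2 months in rods that lack ABCA4, and which members of paired gene families rods carry.

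The libraries came from 2-month-old mice that all carried the RiboTag allele and i75-Rod-Cre, in which a rhodopsin promoter drives Cre, so that a tagged ribosomal protein is made in rods. *Abca4*Ko mice were also *Abca4*-/-, while their control littermates carried RiboTag and i75-Rod-Cre alone. Perfusion with cycloheximide, a drug that stalls translating ribosomes, preceded freezing of all tissue. From each genotype 3 libraries were made of RNA bound to the tagged ribosomes (rod TRAP, translating ribosome affinity purification) and 3 of RNA of the lysate before the pull-down (retina), which gives 12 libraries in 4 groups. How many animals went into a library is not given in the sources used here. Where nothing says that libraries came from separate animals, a p-value measures only the spread between these libraries. Rod TRAP holds ribosome-bound messages of rods and retina holds all messages of all cells, so a difference between them in cell type and a difference in ribosome loading cannot be told apart. In bulk retina, fewer cells of a type and less RNA per cell cannot be told apart either.

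Cells die by the mitochondrial route when BAX or BAK1 opens the outer mitochondrial membrane and cytochrome c reaches the cytosol, where it assembles APAF1 and caspase-9 into the apoptosome, which starts the caspase cascade. BCL2 and BCL-XL (the product of *Bcl2l1*) hold BAX and BAK1 in check. AIFM1, a flavoprotein of the mitochondrial intermembrane space, moves to the nucleus in a caspase-independent form of death that overactive PARP1, a DNA damage sensor, can start. Photoreceptors have been described as dying by both routes. Much of the control of these proteins is by binding, cleavage and location, which RNA levels do not show.

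The scaled counts summed to between 17096515 and 17097707 in rod TRAP and to between 17860761 and 17862326 in retina, so the libraries of a fraction have nearly the same total. If 1 factor per library lies behind that, the reads, estimated from the regular spacing of low values, numbered between 16200000 and 18200000 in rod TRAP and between 14800000 and 23200000 in retina. All 10 rod markers examined were higher in control rod TRAP than in control retina, with a median log2 difference of 1.33. All 8 Müller glia markers were lower, with log2 differences from -6.08 to -3.35, so the rod label fits these lists. Of 8 bipolar markers 7 were lower and 1 higher (*Prkca*, 1.57). Of 7 cone markers 6 were lower and 1 higher (*Cngb3*, 0.88). *Abca4* stood at between 0.349% and 0.958% of the control mean in 4 *Abca4*Ko libraries, but at 23.5% in the rod TRAP library and 21.3% in the retina library labelled *Abca4*Ko replicate 3. Below, the main genotype results are also given without them. The sex of the animals is not in the labels. *Xist* reached 458 and 441 scaled counts in *Abca4*Ko retina replicates 1 and 3 and 124 in control retina replicate 3, and at most 2 in the other retina libraries, while the Y-linked *Ddx3y* was found in all 12 libraries, at between 32 and 773. The part of sex and of residual *Abca4* in the values below was not tested, except where a value without a library is given.

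In control rods the 8 genes spanned a wide range of TPM, a scale that corrects for transcript length. *Parp1*, at 47.5 ± 5.73 TPM (SD, n = 3), and *Bcl2l1*, at 47.3 ± 1.40, stood at the top and their libraries overlapped. *Aifm1*, at 29.6 ± 1.16, and *Bax*, at 29.6 ± 1.65, followed and did not differ beyond their spread. *Casp9* came next at 13.9 ± 0.379 TPM, apart from its neighbours on both sides. *Bak1* (7.8 ± 0.625), *Apaf1* (6.9 ± 1.99) and *Bcl2* (6.5 ± 0.70) closed the order, and each overlapped with the next. The order in control retina was another one, with *Bcl2l1* at 88.9 ± 6.76 TPM, *Bax* at 58.4 ± 3.50, *Parp1* at 32.8 ± 5.20, *Casp9* at 21.5 ± 0.666, *Bak1* at 18.4 ± 1.51, *Aifm1* at 14.6 ± 2.47, *Apaf1* at 2.6 ± 0.755 and *Bcl2* at 2.37 ± 0.751. In retina only the last pair, *Apaf1* and *Bcl2*, overlapped. TPM is a share of its library, and the 10 rod markers summed to between 196891 and 214216 TPM in control rod TRAP. In control retina they summed to between 102021 and 114171, so TPM differences of other genes between fractions also carry that share. The lowest value of any of the genes in any library was 89 scaled counts (*Bak1*), so all 8 passed the filter on low values in every comparison.

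**Figure D1:**
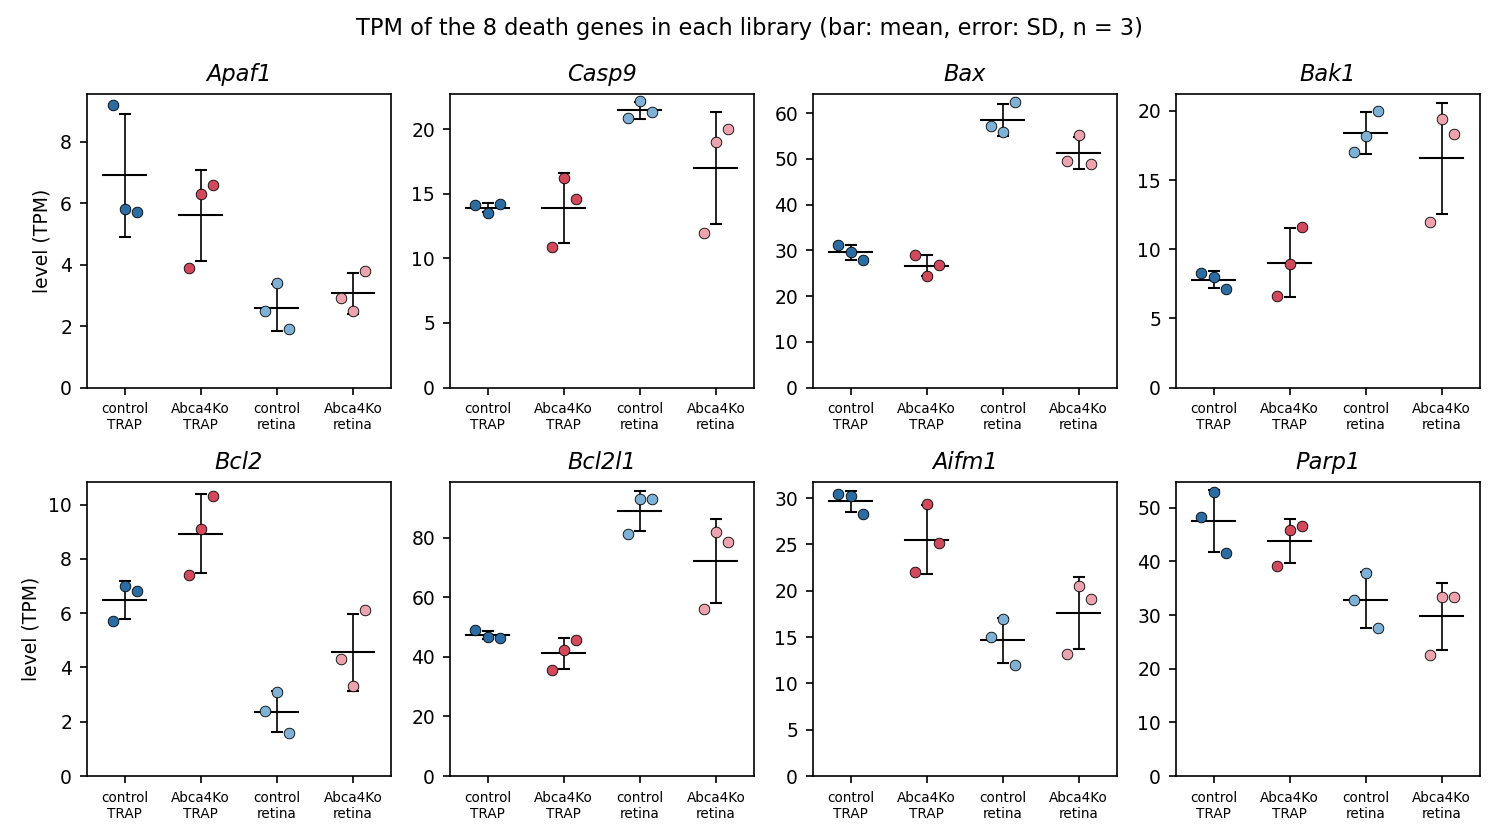
TPM of each gene in the 12 libraries, on axes that start at 0, with points for libraries, a bar for the group mean and an error bar for the SD (n = 3). *Apaf1*, *Bcl2*, *Aifm1* and *Parp1* stand higher in rod TRAP than in retina of the same genotype, and *Casp9*, *Bax*, *Bak1* and *Bcl2l1* have the higher mean in retina.

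The comparison of rod TRAP with retina asked which of the genes rods carry on their ribosomes. In control mice 7 of the 8 genes differed by limma at an adjusted p under 0.05, 4 of them higher and 3 lower in rod TRAP. Among all 16286 genes tested 75.4% differed, 36.6% higher and 38.8% lower, so a count of 7 is near the background and only the direction and size of each gene carry information. The median log2 difference of the 8 genes was 0.31, beside -0.03 for all genes. In *Abca4*Ko mice the count was again 7 of 8, beside 64.1% of 16036 genes (30.4% higher and 33.7% lower), with the directions of each called gene as in controls. The split of called genes depends on the scaling: 48.6% of calls were higher in rod TRAP in controls and 47.4% in *Abca4*Ko after rescaling by trimmed means, against 26.3% and 22.6% with the authors' totals, which put the median gene at -0.62 and -0.49.

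*Apaf1*, the scaffold of the apoptosome, was higher in rod TRAP and second to *Bcl2* among the 8 genes in controls. Its levels were 9.2, 5.8 and 5.7 TPM in control rod TRAP and 2.5, 3.4 and 1.9 TPM in control retina, and every rod library lay above every retina library. After rescaling, the log2 difference reached 1.65 (SE 0.23, limma adjusted p = 2.35e-05). In *Abca4*Ko mice the levels were 3.9, 6.3 and 6.6 TPM in rod TRAP against 2.9, 2.5 and 3.8 TPM in retina, where the lowest rod library lay only just above the highest retina library, and the log2 difference was 1.28 (SE 0.22, limma adjusted p = 3.79e-04). On the log2(TPM + 1) scale that *Abca4*Ko difference was 0.68 with a limma adjusted p of 0.0769.

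*Casp9*, the initiator caspase that the apoptosome activates, did not share the rod enrichment of its partner. Control rod TRAP held 14.1, 13.5 and 14.2 TPM and control retina 20.9, 22.2 and 21.3 TPM, which do not overlap. After rescaling, the log2 difference was -0.23 (SE 0.12, limma adjusted p = 0.113), with a 95% interval from -0.49 to 0.04. In *Abca4*Ko mice the levels were 10.9, 16.2 and 14.6 against 12.0, 19.0 and 20.0 TPM, which overlap, and the log2 difference was 0.01 (SE 0.16, limma adjusted p = 0.980). The call for *Casp9* turned on the processing. It passed the threshold in controls in 4 of 14 alternative fits, among them median-of-ratios scaling (-0.34, limma adjusted p = 0.0185), log2(TPM + 1) (-0.59, limma adjusted p = 0.00496) and the fit without control retina replicate 3 (-0.30, limma adjusted p = 0.0101). With the authors' totals the log2 differences were -0.86 (limma adjusted p = 4.92e-05) in controls and -0.53 (limma adjusted p = 0.0435) in *Abca4*Ko, although relative to the median gene they were -0.24 and -0.04.

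Both pore-forming effectors were lower in rod TRAP than in retina. *Bax* held 31.2, 29.6 and 27.9 TPM in control rod TRAP and 57.1, 55.8 and 62.4 TPM in control retina. Its log2 difference was -0.66 in controls (SE 0.17, limma adjusted p = 0.00350) and -0.67 in *Abca4*Ko (SE 0.23, limma adjusted p = 0.0250). The *Abca4*Ko call was not firm, since its limma adjusted p was 0.0882 without *Abca4*Ko rod TRAP replicate 2, 0.0685 without rod TRAP replicate 3 and 0.0958 without retina replicate 2. *Bak1*, the paralog of *Bax* that sits on mitochondria in resting cells, held 8.3, 8.0 and 7.1 TPM in control rod TRAP and 17.0, 18.2 and 20.0 TPM in control retina. No rod library of either effector reached the level of a retina library in controls, in TPM or in rescaled CPM. The log2 difference of *Bak1* was -0.94 in controls (SE 0.16, limma adjusted p = 1.79e-04) and -0.62 in *Abca4*Ko (SE 0.18, limma adjusted p = 0.0109).

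*Bcl2* and *Bcl2l1*, which encode the survival proteins, went in opposite directions. *Bcl2* held 5.7, 7.0 and 6.8 TPM in control rod TRAP and 2.4, 3.1 and 1.6 TPM in control retina, and it had the largest difference of the 8 genes, with a log2 value of 1.75 (SE 0.18, limma adjusted p = 1.82e-06). That value exceeded those of 7 of the 10 rod markers. In *Abca4*Ko mice the log2 difference of *Bcl2* was 1.20 (SE 0.22, limma adjusted p = 7.05e-04). *Bcl2l1* held 48.9, 46.7 and 46.3 TPM in control rod TRAP and 81.1, 92.8 and 92.8 TPM in control retina, which do not overlap. Its log2 difference was -0.68 in controls (SE 0.13, limma adjusted p = 3.25e-04) and -0.55 in *Abca4*Ko (SE 0.14, limma adjusted p = 0.00456). *Bcl2l1* nevertheless remained the more abundant of the pair in every library of both fractions.

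*Aifm1* and *Parp1*, of the caspase-independent route, were both higher in rod TRAP. *Aifm1* held 30.4, 30.2 and 28.3 TPM in control rod TRAP against 15.0, 16.9 and 12.0 TPM in control retina, with a log2 difference of 1.33 (SE 0.15, limma adjusted p = 3.04e-06), close to the median of the rod markers. In *Abca4*Ko the log2 difference was 0.84 (SE 0.15, limma adjusted p = 4.93e-04). *Parp1* held 48.2, 52.9 and 41.5 TPM in control rod TRAP against 32.9, 37.9 and 27.5 TPM in control retina, so that the lowest rod library exceeded the highest retina library by a small margin. Its log2 differences were 0.84 (SE 0.13, limma adjusted p = 5.09e-05) and 0.85 (SE 0.13, limma adjusted p = 2.30e-04) in control and *Abca4*Ko mice, below those of all 10 rod markers in controls. With the authors' totals *Parp1* missed the threshold in both genotypes, at 0.20 (limma adjusted p = 0.177) and 0.31 (limma adjusted p = 0.0839), and *Aifm1* missed it in *Abca4*Ko at 0.31 (limma adjusted p = 0.113). Relative to the median gene under that scaling the values were 0.82 and 0.80 for *Parp1* and 0.80 for *Aifm1* in *Abca4*Ko.

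**Figure D2:**
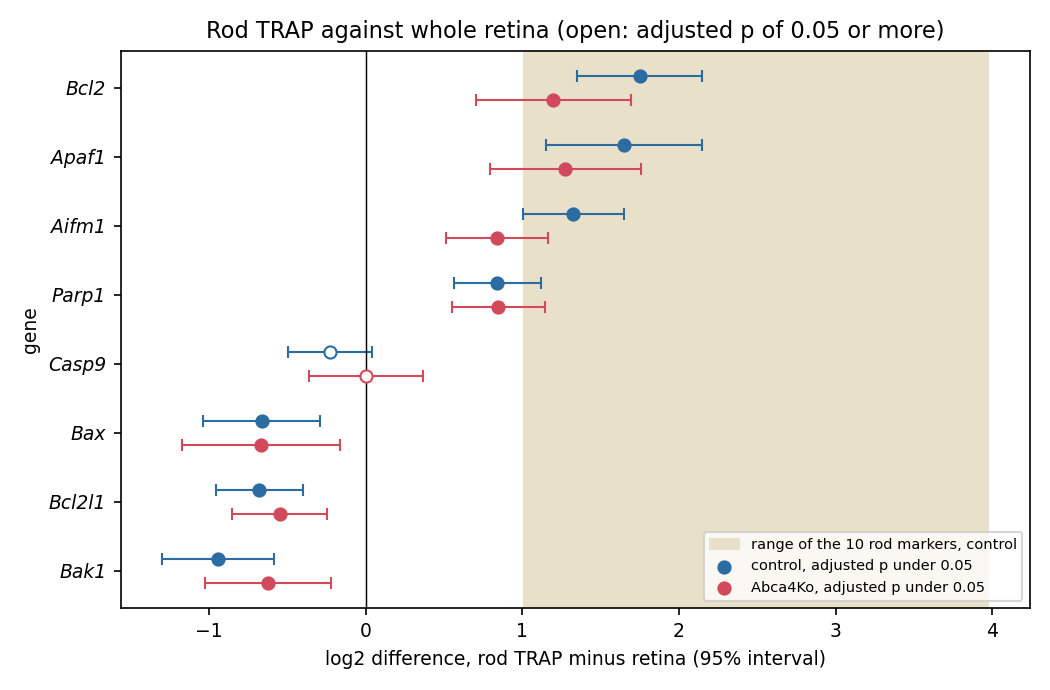
Log2 difference between rod TRAP and retina on the horizontal axis for each gene, in control (blue) and *Abca4*Ko (red) mice, with 95% limma intervals, filled where the adjusted p is under 0.05, and a band for the range of the 10 rod markers in controls (1.01 to 3.98). *Bcl2*, *Apaf1* and *Aifm1* lie within the band in controls, *Parp1* lies between 0 and the band, *Casp9* straddles 0, and *Bax*, *Bcl2l1* and *Bak1* lie below 0.

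The balance within each pair of paralogs was compared as a ratio of TPM within a library, which no scaling of libraries can change. The ratio of *Bcl2l1* to *Bcl2* ran from 6.67 to 8.58 in control rod TRAP (median 6.81), from 4.44 to 4.81 in *Abca4*Ko rod TRAP (median 4.65), from 29.9 to 58.0 in control retina (median 33.8) and from 12.9 to 24.8 in *Abca4*Ko retina (median 13.0). All 6 rod libraries lay below all 6 retina libraries. The mean log2 ratio was 2.54 in rod TRAP and 4.64 in retina, a difference of -2.10 (two-sided exact permutation test, p = 0.00216, the smallest that the 924 splits allow, and 0.00433 after Benjamini-Hochberg adjustment over the 2 ratios). This test treats the libraries as independent, and a test that pairs the fractions by number is given further below. Leaving out 1 library at a time gave differences from -2.30 to -1.86, the last without control retina replicate 3, where *Bcl2* stood at 1.6 TPM.

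The ratio of *Bax* to *Bak1* did not separate the fractions. It ran from 3.70 to 3.93 in control rod TRAP, from 2.30 to 4.39 in *Abca4*Ko rod TRAP, from 3.07 to 3.36 in control retina and from 2.67 to 4.12 in *Abca4*Ko retina, with *Bax* above *Bak1* in all 12 libraries. The mean log2 ratio differed by 0.10 between fractions (two-sided exact permutation test, p = 0.574, also 0.574 after adjustment). Leaving out 1 library at a time moved this difference between 0.02 and 0.21. The control libraries alone do not overlap between fractions, and the *Abca4*Ko libraries do.

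**Figure D3:**
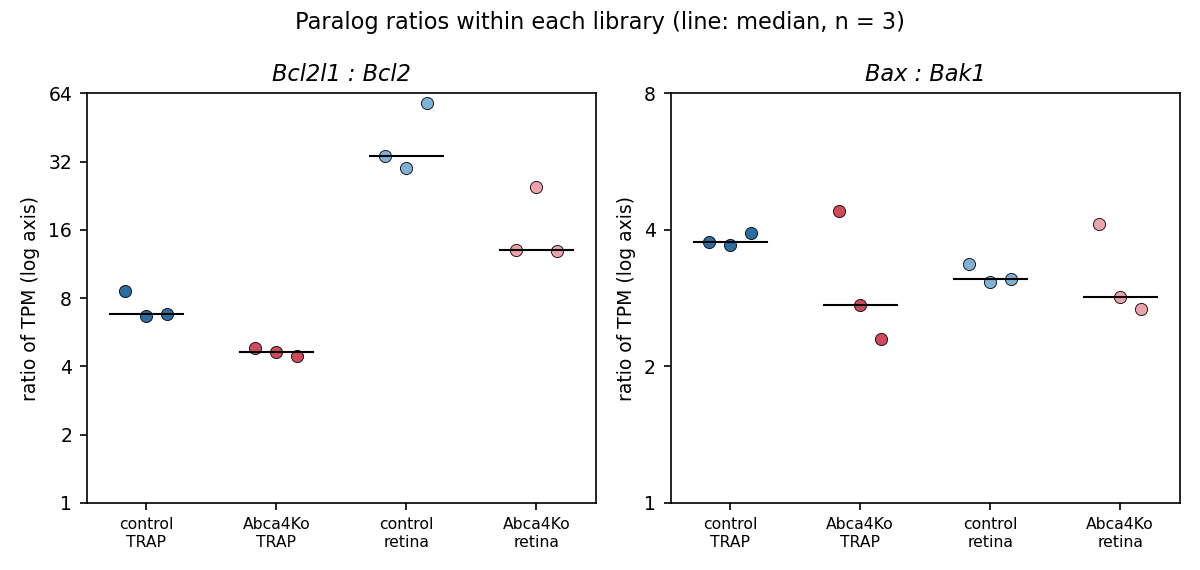
Ratios of TPM within each library on log axes for *Bcl2l1* to *Bcl2* (left) and *Bax* to *Bak1* (right), with a line at the median of each group (n = 3). For the survival pair the 6 rod TRAP libraries lie between 4.44 and 8.58 and the 6 retina libraries between 12.9 and 58.0, and for the effectors the fractions overlap.

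The comparison of the genotypes asked for a death signal in *Abca4*Ko mice. None of the 8 genes passed the threshold of limma in rod TRAP (0 of 8, with 1 of 8 at an unadjusted p under 0.05), where 1.13% of 13104 genes did, 96 higher and 52 lower, and 1368 had an unadjusted p under 0.05. None passed in retina (0 of 8, again 1 at an unadjusted p under 0.05), where 0.106% of 16964 genes did and 2034 had an unadjusted p under 0.05. With so few calls over all genes, a count of 0 in 8 is near the background. The median log2 difference of the 8 genes was -0.00 in rod TRAP and -0.12 in retina, beside 0.00 and -0.02 for all genes. Without the libraries labelled *Abca4*Ko replicate 3 the counts were 0 of 8 in both fractions too.

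*Bcl2* was the gene with the lowest p in both fractions, and it stood higher, not lower, in *Abca4*Ko. In rod TRAP the scaled counts were 493, 517 and 605 in *Abca4*Ko and 335, 413 and 417 in controls, which do not overlap. The log2 difference was 0.47 (SE 0.12, 95% interval 0.22 to 0.73) with a limma p of 0.00175 before and 0.104 after adjustment. In retina the scaled counts were 380, 245 and 455 in *Abca4*Ko and 197, 224 and 132 in controls, which do not overlap either. That log2 difference was 0.92 (SE 0.28, 95% interval 0.31 to 1.54) with a limma p of 0.00726 before and 0.400 after adjustment. The value in rod TRAP passed the threshold in 1 of 14 alternative fits, without *Abca4*Ko rod TRAP replicate 1 (0.49, limma adjusted p = 0.00850), a fit in which 594 genes were called in place of 148. Without replicate 3, which kept part of its *Abca4*, it was 0.41 (limma adjusted p = 0.257). The retina value without its replicate 3 was 0.79 (limma adjusted p = 0.648). The ratio of *Bcl2l1* to *Bcl2* was lower in every *Abca4*Ko library than in every control library of the same fraction, with log2 differences of -0.66 in rod TRAP and -1.27 in retina (two-sided exact permutation test, p = 0.1 each, the smallest that 3 against 3 allows). Without replicate 3 these differences were -0.63 and -1.11 (exact permutation test, p = 0.2 each, the smallest that 2 against 3 allows).

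Like *Bcl2*, the other 7 genes did not pass the threshold in rods. *Casp9* (0.01, 95% interval -0.23 to 0.25), *Apaf1* (-0.00, -0.32 to 0.31) and *Bax* (-0.00, -0.37 to 0.36) had log2 differences within 0.01 of 0, and their libraries overlapped. *Bcl2l1* stood at -0.06 (-0.25 to 0.13) and *Parp1* at -0.04 (-0.23 to 0.15). *Bak1* was at 107, 129 and 124 scaled counts in *Abca4*Ko and 89, 100 and 100 in control rods, with a log2 difference of 0.30 (SE 0.14, limma adjusted p = 0.493). *Aifm1* was at 460, 553 and 476 scaled counts in *Abca4*Ko and 569, 562 and 545 in control rods, with a log2 difference of -0.16 (SE 0.10, limma adjusted p = 0.602). In rescaled CPM *Bak1*, *Bcl2* and *Aifm1* are the 3 of 8 genes whose rod libraries did not overlap between genotypes, beside 17.6% of all genes, while in the scaled counts as deposited the highest *Abca4*Ko value of *Aifm1* lay above the lowest control value.

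Retina values were wider. In rescaled CPM the libraries of 4 of 8 genes did not overlap between genotypes, beside 19.9% of all genes. Besides *Bcl2* these were *Casp9* (528, 743 and 775 scaled counts in *Abca4*Ko against 800, 866 and 895), *Bcl2l1* (1566, 1867 and 1768 against 1959, 2077 and 2404) and *Aifm1* (367, 442 and 442 against 392, 407 and 286, which overlap before rescaling). Their log2 differences were -0.34 (SE 0.16), -0.30 (SE 0.16) and 0.21 (SE 0.19), with limma adjusted p of 0.423, 0.442 and 0.609. *Apaf1* (0.27, SE 0.29), *Bax* (-0.11, SE 0.23), *Bak1* (-0.12, SE 0.19) and *Parp1* (-0.16, SE 0.16) had overlapping libraries. Without the libraries labelled *Abca4*Ko replicate 3 the values of the 7 genes other than *Bcl2* ran from -0.12 (*Aifm1*) to 0.29 (*Bak1*) in rod TRAP and from -0.38 (*Casp9*) to 0.23 (*Aifm1*) in retina, and *Apaf1* in retina went to 0.09 and *Bax* in retina to 0.10. Standard errors in retina ran from 0.16 to 0.29, against 0.08 to 0.16 in rod TRAP. Pigment epithelium markers summed to between 98.1 and 165.6 TPM in *Abca4*Ko retina and to between 135.2 and 318.6 in control retina, and 0 of 8 of them stood above 0 in the genotype difference. Their part in the retina values was not tested.

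The genotype difference did not pass the threshold between fractions for any of the 8 genes (limma interaction, 0 of 8, and 0 of 8 at an unadjusted p under 0.05, beside 0.00579% of 17273 genes called and 1952 at an unadjusted p under 0.05). The interaction values ran from -0.47 for *Bcl2* (95% interval -1.13 to 0.19) to 0.40 for *Bak1* (-0.07 to 0.87).

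**Figure D4:**
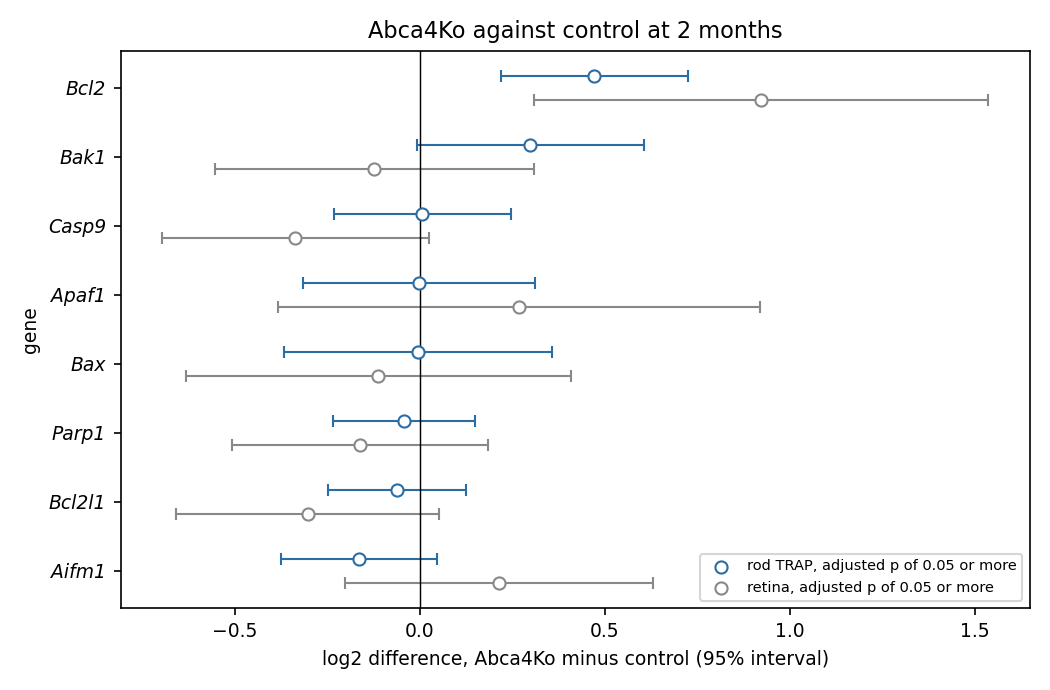
Log2 difference between *Abca4*Ko and control on the horizontal axis for each gene, in rod TRAP (blue) and retina (grey), with 95% limma intervals. No gene has an adjusted p under 0.05, so all points are open, and the intervals of *Bcl2* alone exclude 0, in both fractions.

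The genes around the 8 were then examined through 11 lists that cover the BCL2 family, caspases, inhibitors of apoptosis, death receptors, the AIFM1 and PARP1 route, calpains, necroptosis and pyroptosis, p53 targets and the response of the retina to injury. They hold 79 genes besides the 8. Of these, 1 of 48 tested was called between genotypes in rod TRAP (5 at an unadjusted p under 0.05) and 0 of 65 in retina (10 at an unadjusted p under 0.05, limma). Among all genes 1.13% of 13104 were called in rod TRAP and 0.106% of 16964 in retina, with 1368 and 2034 at an unadjusted p under 0.05. The median log2 differences of the list genes were 0.02 and -0.10. Without the libraries of replicate 3 the counts were again 1 of 48 and 0 of 65, beside 121 and 21 calls among all genes.

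The called gene was *Il18*, which encodes a cytokine that inflammatory caspases mature. Its scaled counts in rod TRAP were 98, 154 and 87 in *Abca4*Ko and 19, 21 and 14 in controls, with a log2 difference of 2.17 (SE 0.23, limma adjusted p = 8.59e-04), and of 2.34 without replicate 3 (limma adjusted p = 4.98e-04). In retina the scaled counts were 108, 168 and 132 against 83, 85 and 95, with a log2 difference of 0.57 (SE 0.22, limma adjusted p = 0.400), and the interaction of 1.66 had a limma adjusted p of 0.407. Of the 10 necroptosis and pyroptosis genes 2 passed the filter in rod TRAP, *Il18* itself and *Gsdme*. *Gsdme* had between 44 and 83 scaled counts in control rods and was not called. In TPM it was near 0 there, at between 0.1 and 0.2, against between 4 and 6.2 in control retina. Its scaled counts in control retina were between 151 and 204, so the 2 measures differ on how far it was lower in rods. The rest of that list was too low in rods to be tested. In rod TRAP, 7 of 7 cone markers also stood above 0, summing to between 504.6 and 625.6 TPM in *Abca4*Ko and between 398.6 and 414.1 in controls, with *Gngt2* called (0.69, SE 0.12, limma adjusted p = 0.0224). Without replicate 3, 3 of the 7 cone markers were called, beside 121 calls among all genes. Their part in the genotype values of the 8 genes was not tested.

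The injury response includes *Gfap*, *Fgf2*, *Edn2* and *Stat3* and rises in Müller glia and photoreceptors of damaged retinas. It gave 0 of 12 calls in retina (4 at an unadjusted p under 0.05, limma, beside 2034 of 16964 genes). Its median log2 difference was -0.46, with 2 of 12 genes above 0, beside -0.02 for all genes, and it was -0.25, with 4 of 12 above 0, without replicate 3. In rod TRAP 0 of 8 injury genes were called (2 at an unadjusted p under 0.05, beside 1368 of 13104 genes), with a median of -0.33. Microglia markers in retina had a median of -0.32, with 2 of 9 above 0, and pigment epithelium markers one of -0.68, and their part in the injury list was not tested. Of the p53 targets 0 of 9 were called in retina (2 at an unadjusted p under 0.05) and 0 of 7 in rod TRAP (0 at an unadjusted p under 0.05), with median log2 differences of -0.02 and 0.11. Of the apoptosome and caspase genes, *Apaf1* and *Casp9* among them, 0 of 7 were called in either fraction (1 at an unadjusted p under 0.05 in rod TRAP and 0 in retina). The inhibitors of apoptosis list also holds *Diablo* and *Htra2*, whose products counter the inhibitors, so its counts and median mix both kinds. It gave 0 of 5 calls in retina (2 at an unadjusted p under 0.05, limma), with 4 of 5 above 0. Its median there was 0.31, and 0.02 with 3 of 5 above 0 without replicate 3. In rod TRAP that list gave 0 of 5 calls (0 at an unadjusted p under 0.05), with a median of 0.01.

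Between fractions these lists place the 8 genes in their pathway. Of 63 list genes tested besides the 8 in controls, 16 were higher and 31 lower in rod TRAP, with a median log2 difference of -0.32. That is 25.4% higher and 49.2% lower, beside 36.6% and 38.8% of all genes. Of the 31 lower genes 16 passed the filter on low values through retina alone and so had to be lower, and neither the counts nor the median are a result about the lists. Genes of that kind are given below by their scaled counts. Among the survival genes *Mcl1*, whose short-lived product guards against BAK1, was higher with *Bcl2*, at 0.64 (SE 0.13, limma adjusted p = 6.36e-04), and *Bcl2l2* was lower with *Bcl2l1*, at -0.32 (SE 0.12, limma adjusted p = 0.0267). The *Mcl1* libraries overlapped between fractions before rescaling. They held between 1088 and 1237 scaled counts in control rod TRAP and between 1019 and 1402 in control retina. Their TPM, between 36 and 41.9 against between 25.2 and 38.7, overlapped too. *Bok*, the remaining effector gene, was at -1.49 (SE 0.20, limma adjusted p = 1.74e-05), so all 3 effectors were lower. The BH3-only genes, whose products sense damage and act on the BCL2 family, included *Bcl2l11* at 0.85 (SE 0.16) and *Bmf* at 0.52 (SE 0.15), both higher after rescaling, and *Bad*, lower, at -0.90 (SE 0.18), while the other 3 of the 4 lower genes passed the filter through retina alone. Before rescaling *Bcl2l11* held between 389 and 506 scaled counts in control rod TRAP and between 357 and 525 in control retina. *Bmf* held between 379 and 478 against between 426 and 523. Their TPM also overlapped between fractions, at between 10.3 and 12.9 against between 7.2 and 11.3 for *Bcl2l11*. For *Bmf* it was between 9.3 and 17.3 against between 8.7 and 9.5.

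Of the genes for inhibitors of apoptosis, *Xiap*, whose product blocks caspases, stood at 3.16 (SE 0.15), *Birc6* at 2.11 (SE 0.14) and *Birc2* at 1.99 (SE 0.19), all higher in rod TRAP. *Birc3* and *Birc5* had at most 1 scaled count in control rod TRAP and were not tested. Of their antagonists in the list, neither *Diablo* nor *Htra2* was called (-0.21 and 0.22). In the AIFM1 and PARP1 list 4 of 10 were higher and 2 lower, and *Aifm1* and *Parp1* themselves are counted among the higher ones. *Parg*, which removes the polymer that PARP1 makes, was at 2.36 (SE 0.18). The lower genes were *Mif*, at -0.88 (SE 0.15), and *Ppif*, a regulator of the mitochondrial permeability pore, at -1.11 (SE 0.15).

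The calpain list, of calcium-activated proteases and their inhibitor calpastatin, holds 4 genes of 5 that passed the filter through retina alone, so their direction was fixed by the filter. *Capns1*, the small regulatory subunit, was detected in both fractions, at between 289 and 308 scaled counts in control rod TRAP and between 2531 and 3251 in control retina. *Capn5* had between 3 and 6 scaled counts in control rod TRAP and between 490 and 519 in control retina, and *Capn1* between 1 and 5 against between 251 and 354. Of the death receptor genes *Cflar*, whose product restrains the receptor route, was higher at 1.40 (SE 0.16), while all 3 lower genes passed the filter through retina alone, and of these *Tnfrsf1a* had between 2 and 9 scaled counts in control rod TRAP and between 244 and 409 in control retina. Among the p53 targets *Ccng1* (1.83, SE 0.14) and *Mdm2* (1.58, SE 0.20) were higher and *Zmat3* (-1.18, SE 0.15) lower, and *Phlda3* had at most 3 scaled counts in control rod TRAP and at least 96 in control retina. Of the injury genes *Fgf2* was at 3.26 (SE 0.20), and *Gfap* had between 3 and 18 scaled counts in control rod TRAP and between 586 and 1094 in control retina. *Bax*, *Bak1* and *Bcl2l1*, the 3 members lower in rod TRAP, had means between 7.8 and 47.3 TPM in control rods.

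**Figure D5:**
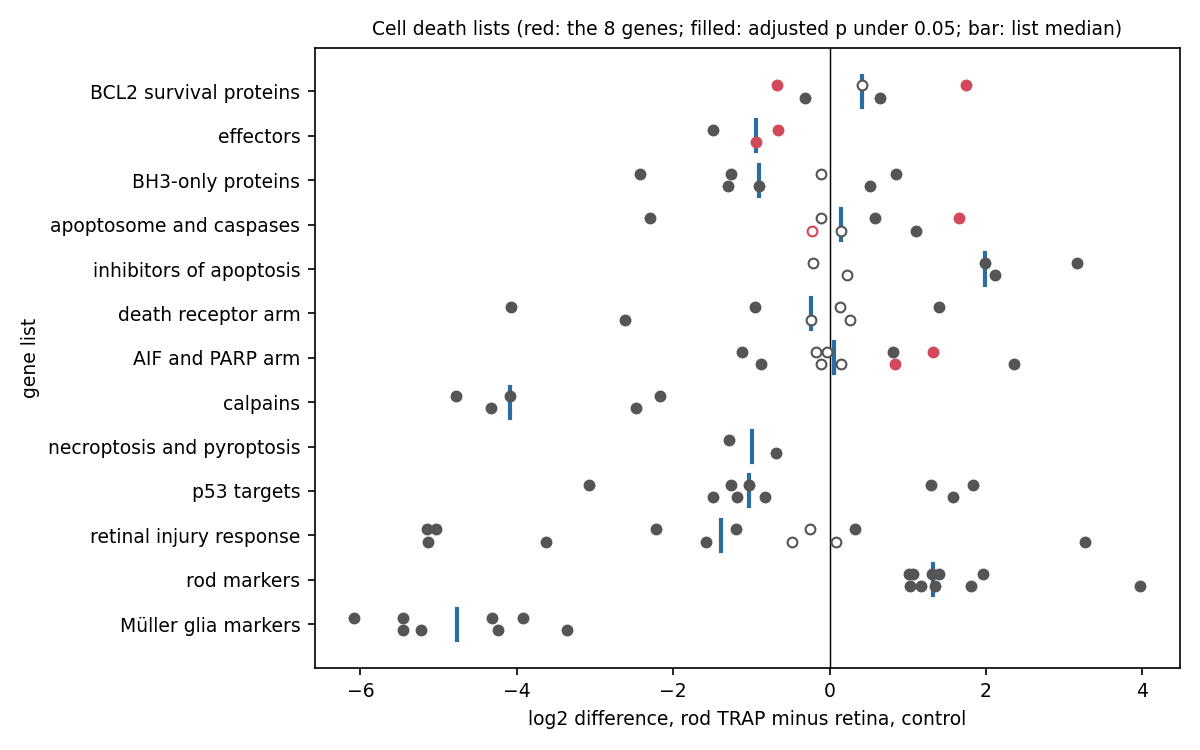
Log2 difference between rod TRAP and retina in controls for each tested gene of the cell death lists and of 2 marker lists, with the 8 genes in red, filled points for an adjusted p under 0.05 and a bar at each list's median. The effectors lie between -1.49 and -0.66, and *Bcl2* and *Apaf1* lie at 1.75 and 1.65. Of the 31 death list genes that are lower, besides the 8, 16 passed the filter through retina alone.

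The genes whose profile over the 12 libraries was nearest to each member, by the root mean square difference of centred log2 values among 17273 genes, were *Golga3* (0.0898) for *Apaf1*, *Zfp574* (0.0623) for *Casp9*, *Gm5786* (0.0691) for *Bax* and *Ccdc92* (0.0626) for *Bak1*. They were *Rab5b* (0.0781) for *Bcl2l1*, *Hmgb1* (0.0605) for *Aifm1* and *Dhx38* (0.0618) for *Parp1*. *Bcl2* had the most distant nearest gene, *Cdk13*, at 0.141, and *Apaf1* the next most distant. No member was among the nearest 2 genes of another.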

How the data were processed

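RNA of 12 libraries was analysed from tables that the authors deposited per gene symbol. In the first the authors gave what is called a scaled count here, a score that looks like read counts multiplied by 1 factor per library and rounded, inferred from nearly equal totals and the spacing of low values. The second holds TPM per library, made by the authors, to 1 decimal. Per the labels, reads were handled with CASAVA 1.8.2, HISAT2, DESeq2, edgeR and the GRCm39 build, with no roles stated. How reads shared by several places were counted is not given in the sources used here. Depth was estimated from the gaps and doublings that a factor leaves among low values, checked on simulated data. In control retina replicate 3 no such spacing was seen, and its depth is the least certain.

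Libraries were grouped and numbered by their labels. Scaled counts were rescaled by trimmed means of M values (trims 0.3 and 0.05) and taken to log2(CPM + 0.5), a scale on which changes of low genes are understated. A gene was tested with at least 10 scaled counts in at least 3 libraries. The whole table was fitted in R 4.3.3 by limma 3.58.1 with trended and robust moderation, two-sided, and a Benjamini-Hochberg adjusted p under 0.05 made a call. Each comparison used its own 6 libraries, and the interaction all 12. The limma step was tested on simulated data. Paralog ratios were compared with SciPy 1.17.1 by an exact permutation test, which treats the 12 libraries as independent. Intervals are those of limma and cover the spread of libraries only.

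The members, the lists and the tests were chosen with earlier results of these data known. Genotype values of list genes, markers and ratios without *Abca4*Ko replicate 3 were added after seeing the data. All 8 members are named. Of the list genes, those called between genotypes are named, and for the control fraction comparison the 2 largest rises and 2 largest falls per list among called genes at 5 CPM or more in the higher group, not all of which are described. Genes that illustrate what a list holds were named beside this rule, and some items are not reported here. Nearest genes are the closest by profile. Rod TRAP and retina libraries of the same number deviated together from their group means in all 6 pairs (r from 0.160 to 0.433 over genes). The labels do not say that a number marks an animal, so a pairing of the fractions by number is inferred. The main fraction fits and the main exact test of the ratios leave it out. No sequences are shown, since none bears on these values.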

Additional observations from a re-analysis of the deposited data

Results flagged for a closer look

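The genotype values of *Aifm1* had opposite signs in rod TRAP and retina, and neither passed the threshold (adjusted p = 0.602 and 0.609). After rescaling, every *Abca4*Ko rod TRAP library lay below every control rod TRAP library in CPM (log2 difference -0.16), and every *Abca4*Ko retina library lay above every control retina library (0.21). In the scaled counts as deposited the genotypes overlap in both fractions. The test of the difference itself, the limma interaction, gave -0.40 (SE 0.20, 95% interval -0.83 to 0.02, adjusted p = 0.463), so it did not pass the threshold. The gene lies on the X chromosome, and *Xist* stood at 458, 0 and 441 scaled counts in *Abca4*Ko retina and at 2, 0 and 124 in control retina. The 50 tested genes nearest to *Aifm1* on that chromosome, 25 on each side, had a median genotype log2 difference of 0.23 in retina. In rod TRAP the median of such neighbours was -0.02. The part of sex and of chromosomal position in the *Aifm1* pattern was not tested.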

How the results depend on the processing

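Each gene's log2 difference was refitted under 14 alternatives (20 for the interaction). For the genotype comparisons 111 of 112 values in rod TRAP, 112 of 112 in retina and 160 of 160 in the interaction kept their side of the threshold, and for the fractions 107 of 112 in controls and 104 of 112 in *Abca4*Ko. The value that changed sign and became a call was that of *Casp9* in *Abca4*Ko, from 0.01 to -0.53 (adjusted p = 0.0435) with the authors' totals, which place the median gene at -0.49. Of the genotype values that were called in no fit, those of *Apaf1* (-0.26 to 0.14) and *Bax* (-0.15 to 0.09) in rod TRAP and of *Bax* in retina (-0.26 to 0.10) changed sign among others. Leaving out 1 library at a time, limma called between 0 and 1 of the 8 genes between genotypes in rod TRAP (the 1 being *Bcl2*, without *Abca4*Ko replicate 1), 0 in retina and in the interaction, between 7 and 8 between fractions in controls and between 6 and 7 in *Abca4*Ko. The other alternatives called between 5 and 8 between fractions.

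Over all genes the count in rod TRAP was 148, 58 on log2(TPM + 1), 94 in 1 fit of all 12 libraries, and between 30 and 594 without 1 library (594 when *Abca4*Ko replicate 1 was left out, and 36, 30 and 33 when control replicate 1, 2 or 3 was). The retina count was 18, 33 without the filter, 38 on log2(TPM + 1), 62 in 1 fit of all libraries and between 1 and 21 without 1 library (1, 4, 10 and 1 without *Abca4*Ko replicates 1 and 2 and control replicates 1 and 3). Between fractions in *Abca4*Ko it was 10280, and 6595 without *Abca4*Ko retina replicate 2, and the interaction went from 1 to 3 on log2(TPM + 1). The cause of these shifts was not tested.

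With the replicate block, which pairs the fractions by number, the calls were 7 and 7 of 8, as without it. The *Bcl2l1* to *Bcl2* difference stayed at -2.10 with an exact paired p of 0.0312, the smallest that 6 pairs allow. The block changed no other call of a member. Between genotypes the numbers are shared but do not pair the libraries (r from -0.394 to 0.012), and the block gave 0 of 8 in each fraction and 46 genes in place of 18 in retina and 151 in place of 148 in rod TRAP. Among the fraction pairs *Abca4*Ko rod TRAP replicate 2 correlated slightly better with retina replicate 3 (0.229) than with its own number (0.206).

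Precision was set by 3 libraries a group: intervals between genotypes spanned from -0.25 to 0.13 for *Bcl2l1* in rod TRAP and from 0.31 to 1.54 for *Bcl2* in retina.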
